A study of Homo sapiens with 9 samples.

Results

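The genes of cholesterol and fatty acid synthesis were followed in H69 cholangiocytes, a line derived from human bile duct epithelium, after treatment with acetazolamide or laminin 511-E8. The list held 32 genes, of 61541 gene identifiers counted. Its rule used gene names and no measured value, but the genes were chosen with earlier results of these data known. It was divided into 18 enzymes of sterol synthesis, 6 regulators, and 8 enzymes of fatty acid synthesis and desaturation. The 6 regulators include the sterol carrier STARD4. Poly(A) RNA was sequenced in 9 libraries, 3 from each of 3 groups. All groups were wild type H69 cells, seeded at 100000 cells in a 12-well format and grown to confluency over 48 h before treatment. The Ctrl group received 10 µl of DMSO, the Acetazolamide group received acetazolamide at 10 µM for 48 h, and the Laminin511-E8 group received the recombinant human protein fragment at 0.25 µg/cm2 for 48 h. The medium was renewed after 24 h. DMSO is named for Ctrl only, so in comparisons with Ctrl a treatment cannot be told apart from a difference in DMSO. All libraries come from a single cell line, and the libraries of a group were those with the best RNA integrity of a larger set of cultures. Acetazolamide inhibits carbonic anhydrases, and laminin 511-E8 is the integrin-binding fragment of a basement membrane laminin.

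Cells make cholesterol from acetyl-CoA through mevalonate, isoprenoid diphosphates, squalene and lanosterol, and make fatty acids from the same precursor through malonyl-CoA. Both routes are under the control of sterol regulatory element-binding proteins (SREBPs), which are held in the endoplasmic reticulum by SCAP and the INSIG proteins when sterol is plentiful. When sterol falls, SCAP escorts SREBP to the Golgi, where proteases release a transcription factor. SREBP2, encoded by SREBF2, acts mainly on sterol genes, and SREBP1, encoded by SREBF1, mainly on fatty acid genes. The factors bind sterol regulatory elements together with NF-Y, which binds CCAAT boxes. Cholangiocytes line the bile ducts and face bile, which is rich in cholesterol.

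Short promoter windows are shown because SREBP and NF-Y act through elements of this kind near the start of these genes. RefSeq promoters on GRCh38.p14, from 250 bases before to 50 bases after the transcription start, were found for 28 of the 32 genes. The letters of the classical sterol regulatory element, TCACNCCAC on either strand, were present in 1 of the 28, the promoter of SREBF2, and in 1.15% of all 27305 promoters in the table. In the SREBF2 promoter the element started 133 bases before the start site, at chr22:41832962-41832990 on the plus strand with 10 bases on each side, and is given in capitals.

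SREBF2: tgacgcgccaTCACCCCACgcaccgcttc

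A CCAAT box on either strand was present in 18 of the 28 promoters, against 36.5% of the promoters of 10717 genes that passed the filter on low counts. By role, it was present in 12 of 15 sterol enzymes, 3 of 6 regulators and 3 of 7 fatty acid enzymes. For 5 genes that are described further on, 1 box each is given in capitals (MSMO1 held 4 boxes and DHCR7 held 2), as read on the strand of the gene, where ATTGG is the reverse complement of CCAAT. They stood 74 bases before the start in TM7SF2 (chr11:65111788-65111812, plus strand), 94 bases in DHCR7 (chr11:71448473-71448497, minus strand), 170 bases in INSIG1 (chr7:155297698-155297722, plus strand), 106 bases in SREBF2 (chr22:41832989-41833013, plus strand) and 76 bases in MSMO1 (chr4:165327583-165327607, plus strand).

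TM7SF2: ccgagcgccgATTGGctggtgtgct
DHCR7: ggctcctcgaCCAATcacggggcgc
INSIG1: ccggcctcccATTGGttgcggccgc
SREBF2: tcgctcgcccATTGGctgagatgag
MSMO1: actgcacagaCCAATcaccgcgccg

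The GC box GGGCGG was present in 26 of 28 promoters (70.1% of promoters of tested genes) and the E-box CACGTG in 4 of 28 (9.96%), those of LSS, SC5D, INSIG1 and SCAP. A match is a run of letters and not evidence of binding. Only these exact letters were searched, so a promoter without a match may still hold another form of the element.

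All 32 genes passed the filter on low counts, and their lowest count in any library ranged from 16 for STARD4 to 6859 for SCD. Levels between genes were compared as TPM, counts divided by the length of all exons of the gene and scaled to the same total in every library. In Ctrl libraries the most abundant was SCD, the desaturase that makes oleate, at 305 ± 62.3 TPM (SD, n = 3), followed by ACLY, which makes cytosolic acetyl-CoA from citrate, at 249 ± 62.8 TPM. The leading sterol enzymes were MSMO1, the C4-methylsterol oxidase, at 175 ± 44.3 TPM, FDPS, which makes farnesyl diphosphate, at 162 ± 26.7 TPM, and ACAT2, which makes acetoacetyl-CoA, at 156 ± 19.9 TPM. Next came SQLE, squalene epoxidase, at 121 ± 14.8 TPM, FASN, fatty acid synthase, at 106 ± 40.5 TPM, and the desaturase FADS1 at 100.1 ± 16.5 TPM. These 8 transcripts lay at or above percentile 92.6 of the 15997 genes tested. The sterol sensor INSIG1 stood at 96.0 ± 28.9 TPM and its paralog INSIG2 at 35.1 ± 7.11 TPM.

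At the low end were LSS, which closes the sterol ring, at 4.78 ± 2.04 TPM, CYP51A1, the lanosterol demethylase, at 2.60 ± 0.252 TPM, ACACA, acetyl-CoA carboxylase, at 2.29 ± 1.48 TPM, and the sterol carrier STARD4 at 1.02 ± 0.344 TPM. Of the 31 pairs of neighbours in the order of Ctrl means, 28 overlapped across the Ctrl libraries, and only ACAT2 over SQLE, PMVK over SC5D and LSS over CYP51A1 did not. SREBF2 (38.8 ± 10.2 TPM) lay above SREBF1 (10.3 ± 4.81 TPM) in all 3 Ctrl libraries.

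For some genes the value can depend on how reads were assigned. In the GENCODE 29 annotation, 79.4% of the exon bases of CYP51A1 are shared with another gene on the same strand, which had 0 counts, and 3 of its pseudogenes held 825 counts over the 9 libraries against 670 for CYP51A1 itself. For ACAT2, 52.3% of the exon bases lie opposite other genes, and FADS1 and FADS2 share 490 bases on opposite strands, so reads there cannot be told apart without strand. The value of CYP51A1 is therefore uncertain, and length over all exons lowers the TPM of genes with many alternative exons.

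The cholangiocyte identity of the cells was checked with 6 markers (KRT7, KRT19, EPCAM, CDH1, CD24 and SOX9), all of which had at least 10 counts in every library. Their summed level was 3253 to 3905 CPM in Ctrl, 3329 to 4008 in Acetazolamide and 2802 to 3164 in Laminin511-E8 libraries. The Laminin511-E8 range of the sum lay below both others. These CPM are counts per library total, without TMM. On that scale the Laminin511-E8 libraries lay below Ctrl for EPCAM, CDH1 and CD24, and overlapped Ctrl for KRT7, KRT19 and SOX9. For single genes below, CPM are counts scaled to a common library total after TMM. Markers of hepatocytes, adipocytes and leukocytes were at or near 0, and of 3 fibroblast markers COL1A1 was detected. The part of the lower marker sum in the results below was not tested. In bulk RNA, fewer cells of a type cannot be told apart from less RNA per cell.

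Total counts ranged from 12529867 to 39518899 per library, and mitochondrial genes took 9.43% to 16.2% of counts, highest in Ctrl replicate 2. The libraries also differed in how their counts followed the GC content of transcripts. At 40% GC the deviation from the mean of all libraries, on the log2 scale, ran from -0.46 in Acetazolamide replicate 3 to 0.28 in Acetazolamide replicate 2, and at 60% GC from 0.36 to -0.32 in the same 2 libraries.

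The synthesis genes, which range from 37.3% to 65.3% GC, differed between libraries along this trend. The 11 genes at or above 55% GC (MVK, PMVK, MVD, LSS, TM7SF2, DHCR7, SREBF1, SREBF2, SCAP, FASN and FADS2) were all above their own 9-library mean in Acetazolamide replicate 3, by a median of 0.54 on the log2 scale. In Acetazolamide replicate 2, 0 of these 11 genes were above their mean, with a median of -0.33. The 10 genes below 45% GC, among them HMGCS1, IDI1, SQLE, MSMO1 and SC5D, had medians of the opposite sign, -0.42 and 0.39 in these libraries, where 2 and 8 of the 10 were above their mean. Laminin511-E8 replicate 2 stood apart from its group in the same way, at -0.44 for the low-GC genes and 0.18 for the high-GC genes. In Laminin511-E8 replicates 1 and 3, 0 of the 11 high-GC genes were above their mean, with medians of -0.285 and -0.288. The low-GC medians in these replicates were 0.06 and 0.12. Both classes held members of all 3 roles. The high-GC genes were 6 sterol enzymes, 3 regulators and 2 fatty acid enzymes. The low-GC genes were 7 sterol enzymes, 2 of the regulators and carrier and 1 fatty acid enzyme.

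**Figure D1:**
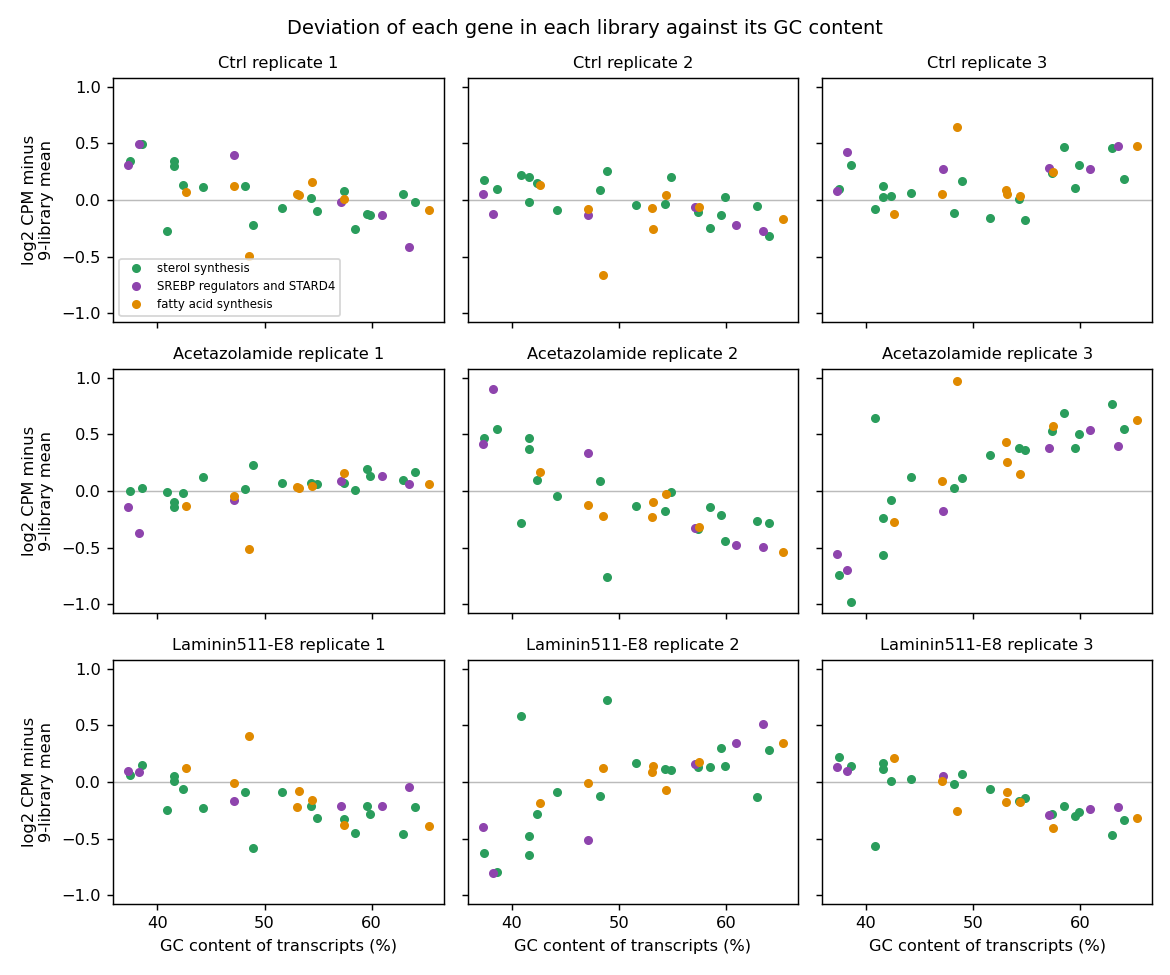
Log2 CPM of each gene minus its mean over the 9 libraries (vertical axis) against the GC content of its transcripts in percent (horizontal axis), with 1 panel per library and 1 point per gene, coloured by role. Points slope upward in Acetazolamide replicate 3 and Laminin511-E8 replicate 2 and downward in Acetazolamide replicate 2, while other libraries are flatter.

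The trend was removed in a second fit by subtracting, in each library, a local regression of log2 counts on GC content. This correction was estimated from the same libraries, so a smaller spread after it is in part by construction. The median SD within groups of the 32 genes went from 0.319 to 0.114 on the log2 scale, and was smaller for 27 of them. Over 13377 genes that reached 10 counts throughout it went from 0.241 to 0.133. The ratio of the highest to the lowest library fell from 2.87 to 1.68 for MSMO1, from 2.31 to 1.28 for SC5D, the lathosterol oxidase, and from 2.25 to 1.26 for FASN. FDFT1 (squalene synthase), CYP51A1 and ACACA had 1855, 670 and 2029 counts over the 9 libraries. Their ratios were 2.80, 2.32 and 3.10 before the correction and 2.74, 3.42 and 3.03 after it, so that of CYP51A1 was larger. LSS, with 2303 counts, went from 2.21 to 1.60. Values without and with the correction are given side by side below.

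The sum over the 18 sterol genes was 1139, 842 and 1133 TPM in the Ctrl libraries, 1050, 1140 and 1040 TPM in the Acetazolamide libraries, and 930, 918 and 937 TPM in the Laminin511-E8 libraries, each in the order of replicates 1 to 3. The Laminin511-E8 libraries lay below all Acetazolamide libraries. Ctrl overlapped both other groups, with Ctrl replicate 2, in which mitochondrial transcripts took the largest share, the lowest of all. The scale mattered here, since as counts per library total, without length, the sums were 1286, 1136 and 1242 CPM in Ctrl, 1212, 1271 and 1238 CPM in Acetazolamide and 1087, 1080 and 1108 CPM in Laminin511-E8. On that scale the Laminin511-E8 libraries lay below all others. The sum over the 8 fatty acid genes ranged from 654 to 1050 TPM, and its ratio to the sterol sum from 0.729 in Acetazolamide replicate 2 to 1.02 in Laminin511-E8 replicate 2. The libraries with the highest ratios, Laminin511-E8 replicate 2, Acetazolamide replicate 3 and Ctrl replicate 3, each come from another group.

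No change of the synthesis genes was detected under acetazolamide. None of the 32 genes passed edgeR's quasi-likelihood test at an adjusted p of 0.05, where 0.00% of all 15997 genes passed, and 0 of 32 had an unadjusted p below 0.05, against 1.83% of all genes. With the GC correction the counts were again 0 of 32 and 0 of 32, against 0.00634% and 4.38%. DESeq2 and limma also called 0 of the 32. The median log2 fold change was 0.04 for the sterol genes, 0.05 for the fatty acid genes and -0.08 for the regulators, and with the GC correction it was 0.00, -0.01 and -0.02. Without the correction the groups overlapped for all 32 genes, where 2.10% of all genes were lower and 3.21% higher without overlap. With it 1 gene, PMVK, was higher without overlap and 0 were lower, against 4.90% and 4.51%.

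The sterol median rested on single libraries, since it was 0.23 without Acetazolamide replicate 2. Per gene, HMGCS1, which makes HMG-CoA, stood at 107, 85.4 and 88.2 CPM in Ctrl and at 78.2, 112 and 73.2 CPM in Acetazolamide. FASN stood at 278, 263 and 412 CPM in Ctrl and at 309.7, 204 and 458 CPM in Acetazolamide. Both groups overlapped for either gene, and the 2 Acetazolamide libraries at the extremes were those at the extremes of the GC trend.

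With the GC correction, 26 of the 32 intervals lay within 0.5 on the log2 scale in either direction, against 11 without it. For SQLE the change was -0.00 (95% interval -0.17 to 0.16), for FASN -0.07 (-0.26 to 0.12), for INSIG2 0.01 (-0.15 to 0.17) and for SCD -0.07 (-0.24 to 0.11). The widest intervals were those of CYP51A1 (-0.75 to 1.48) and ACACA (-0.88 to 1.39), at which neither a change nor its absence could be detected.

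Most synthesis genes had lower values in Laminin511-E8 than in Ctrl libraries, by small amounts that did not pass the test. Against Ctrl, 23 of the 32 genes had a log2 fold change below 0, where 50.8% of all genes did, and with the GC correction 24 did, against 49.1%. The median was -0.14 in both fits, while that of all genes was -0.00 and 0.00. Without the correction, the median of the 32 depended on single libraries, at -0.09 without Laminin511-E8 replicate 1 or Ctrl replicate 3 and -0.21 without Laminin511-E8 replicate 2. None of the 32 passed edgeR's quasi-likelihood test at an adjusted p of 0.05 in either fit. The background was 0.00% of all genes without the correction and 0.361% with it. At an unadjusted p below 0.05, 1 gene (FADS1) was lower and 0 higher without the correction, against 1.49% and 1.34% of all genes. With the correction, 9 of the 32 were lower and 0 higher, against 4.58% and 3.28% of all genes. These genes answer to shared regulators and are not independent of each other.

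**Figure D2:**
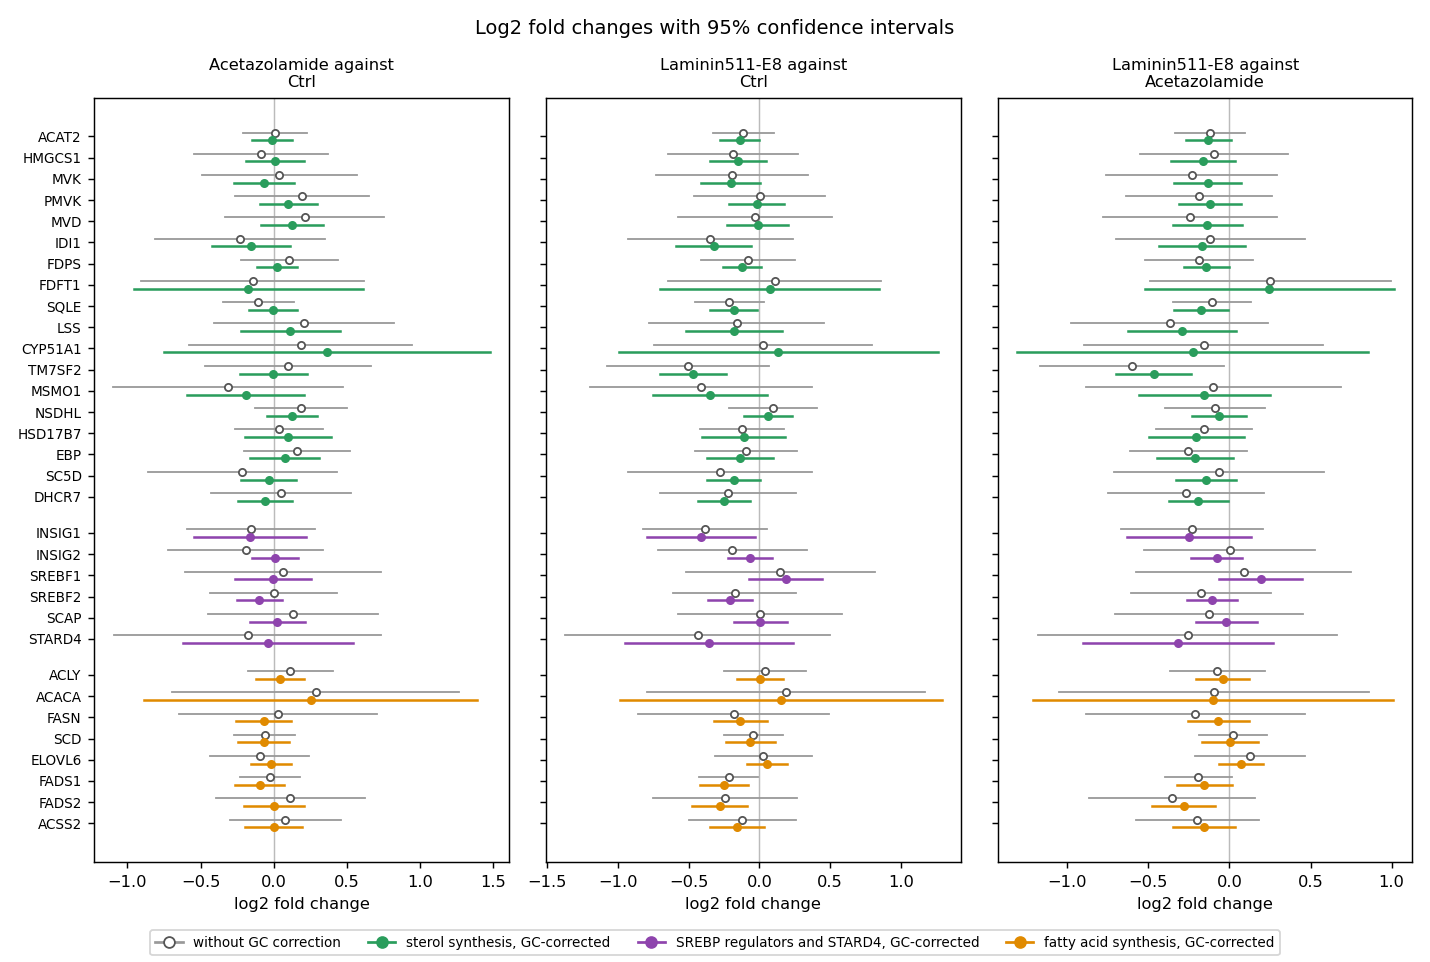
Log2 fold change of each gene (points) with its 95% confidence interval (lines) in the 3 comparisons, from edgeR fits of 9 libraries without the GC correction (open grey symbols) and with it (filled, coloured by role). Corrected intervals are shorter for most genes, the points of Acetazolamide against Ctrl lie around 0, and those of Laminin511-E8 lie mostly below 0, with intervals that mostly cross it.

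The lowest of the sterol enzymes under laminin 511-E8 was TM7SF2 (ENSG00000149809, chr11:65111845-65116384 on the plus strand, GRCh38), the C14-sterol reductase of the route after lanosterol. It stood at 16.2, 15.1 and 21.5 CPM in Ctrl, at 16.8, 13.1 and 26.7 CPM in Acetazolamide, and at 11.4, 14.3 and 11.3 CPM in Laminin511-E8 libraries. The Laminin511-E8 libraries lay below all Ctrl libraries and overlapped the Acetazolamide group. After the GC correction they stood at 13.2, 11.6 and 13.1 CPM, below all 6 other libraries, of which the lowest was at 15.6 CPM. The log2 fold change against Ctrl was -0.51 ± 0.26 (SE) without the correction and -0.47 ± 0.11 with it, where edgeR gave an adjusted p of 0.12. It passed in 1 of 31 settings, the GC correction with DESeq2 (adjusted p 0.040), and this was the only call of any of the 32 genes in any setting and comparison.

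SQLE, the epoxidase that commits squalene to sterols, stood at 174, 176 and 163 CPM in Ctrl and at 152, 130.5 and 159 CPM in Laminin511-E8 libraries. IDI1, the isopentenyl diphosphate isomerase, stood at 116, 105 and 99.5 CPM in Ctrl and at 94.7, 58.3 and 98.8 CPM in Laminin511-E8. Neither pair of groups overlapped, although IDI1 did so by a narrow margin and its lowest value was in the replicate with the GC trend. With the correction the log2 fold changes were -0.18 ± 0.08 for SQLE and -0.32 ± 0.12 for IDI1, with adjusted p of 0.59 and 0.52 from edgeR.

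Without the correction, 14 of the 18 sterol enzymes lay below 0 against Ctrl, and 0 had an unadjusted p below 0.05 from edgeR. With the correction 15 lay below 0 and 3 above it, where 49.1% of all genes lay below. In that corrected fit 5 of the 18, all lower, had an unadjusted p below 0.05 from edgeR, where 4.58% of all genes were lower. DHCR7, which makes cholesterol from 7-dehydrocholesterol, gave -0.25 ± 0.08 and ACAT2 -0.14 ± 0.06. MSMO1 gave the second lowest value of the sterol enzymes, -0.35, but with an SE of 0.18, and its Laminin511-E8 libraries (147, 76.2 and 146 CPM) overlapped Ctrl (186, 142 and 163 CPM). NSDHL (0.06) and MVD (-0.01), which act in C4 demethylation and in making isopentenyl diphosphate, stood near 0. FDFT1 and CYP51A1 gave 0.07 and 0.13 with SEs of 0.34 and 0.50.

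Of the regulators, INSIG1, itself a target of SREBP, stood at 129, 89.6 and 119 CPM in Ctrl, at 92.7, 124 and 86.8 CPM in Acetazolamide and at 87.4, 68.8 and 101 CPM in Laminin511-E8 libraries. The groups overlapped. Its log2 fold change under laminin 511-E8 was -0.39 ± 0.20 and with the correction -0.41 ± 0.17 (edgeR adjusted p 0.60). SREBF2 gave -0.18 ± 0.19 and, with the correction, -0.21 ± 0.07, where its Laminin511-E8 libraries (83.9, 86.6 and 80.0 CPM) lay below those of Ctrl (93.7, 91.1 and 104 CPM). SREBF1 had the opposite sign, at 0.15 ± 0.30 and 0.19 ± 0.12, and SCAP stood at 0.00 and 0.01. None of these passed.

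Among the fatty acid genes the desaturases of polyunsaturated fatty acids were lowest. FADS1 stood at 352, 325 and 322 CPM in Ctrl, at 324, 309.4 and 349 CPM in Acetazolamide and at 281, 299.9 and 278 CPM in Laminin511-E8 libraries. Without the GC correction all Laminin511-E8 libraries lay below all others. With it they stayed below Ctrl but overlapped Acetazolamide. Its log2 fold change against Ctrl was -0.22 ± 0.09, and with the correction -0.25 ± 0.08 (edgeR adjusted p 0.37). FADS2 gave -0.24 ± 0.23 and -0.28 ± 0.09. The other fatty acid enzymes lay closer to 0 or had wide intervals. With the correction SCD gave -0.06 (95% interval -0.24 to 0.11), ACLY 0.00 (-0.16 to 0.17), ELOVL6, which lengthens palmitate, 0.05 (-0.09 to 0.19), and FASN -0.14 (-0.32 to 0.05), an interval that also holds the values of FADS1 and FADS2. ACSS2, which makes acetyl-CoA from acetate, gave -0.16 (-0.35 to 0.03) and ACACA 0.15 (-0.99 to 1.29). The median of the fatty acid genes was -0.10 and that of the sterol genes -0.15. The difference between the arms was not tested.

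By overlap of groups, 4 of the 32 genes (IDI1, SQLE, TM7SF2 and FADS1) were lower in all Laminin511-E8 than in all Ctrl libraries and 0 were higher, where 3.96% and 4.69% of all genes were. With the correction 11 were lower (MVK, IDI1, FDPS, SQLE, TM7SF2, SC5D, DHCR7, SREBF2, FADS1, FADS2 and ACSS2) and 0 higher, against 7.25% and 6.85%. The median difference of the 32 genes from the Ctrl mean with the correction was -0.20, -0.08 and -0.12 in Laminin511-E8 replicates 1, 2 and 3, while without it that of replicate 2 was 0.07.

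Laminin511-E8 against Acetazolamide uses the same Laminin511-E8 libraries, so its values are not a second observation of them. None of the 32 genes passed edgeR's test, against 0.00% of all genes without and 0.197% with the correction (0.146% lower). The log2 fold change was below 0 for 27 of 32 genes (49.2% of all genes) and, with the correction, for 28 (49.4%), with medians of -0.16 and -0.14. Of the 18 sterol genes 17 were below 0 in both fits, the exception being FDFT1. TM7SF2 gave -0.60 ± 0.26 and -0.47 ± 0.11, and FADS2, the first desaturase of the polyunsaturated route, -0.36 ± 0.23 and -0.28 ± 0.09, with adjusted p of 0.16 and 0.50 after the correction. At an unadjusted p below 0.05, 1 gene (TM7SF2) was lower without the correction (1.36% of all genes) and 5 with it (3.20%). Without the correction, ACAT2 and FADS1 were lower without overlap and 0 genes were higher, against 3.11% and 3.01%. With it, 6 genes were lower without overlap (ACAT2, MVD, FDPS, TM7SF2, EBP and DHCR7, against 6.13% of all genes) and 2, SREBF1 and ELOVL6, higher (against 5.74%).

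The wider pathway was read from 4 lists of 53 tested genes in all. Of 8 genes of the isoprenoid branch and 12 of late sterol synthesis and SREBP processing, 0 passed edgeR's test in any comparison or fit. In the isoprenoid branch the smallest p-values belonged to NUS1, a subunit of the dehydrodolichyl diphosphate synthase, FNTA, a farnesyltransferase subunit, and PDSS2, of ubiquinone synthesis. NUS1 was named for all comparisons, FNTA only for those with Acetazolamide, and PDSS2 only for Laminin511-E8 against Ctrl. NUS1, FNTA and PDSS2 gave -0.08, -0.07 and -0.10 for Laminin511-E8 against Ctrl with the correction. In the second list TMEM97, a sterol-responsive membrane protein, gave -0.18, ERLIN1, which takes part in the breakdown of sterol-regulated proteins, 0.14, and MBTPS2, the site-2 protease of SREBP, -0.01. These values are also for Laminin511-E8 against Ctrl, whereas MBTPS2 was among the smallest p-values only for Acetazolamide against Ctrl.

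Of 12 genes of cholesterol transport, storage and the LXR response, 0 passed edgeR's test in either fit. ABCA1, the cholesterol exporter, stood at 35.3, 32.6 and 34.9 CPM in Ctrl, at 31.6, 37.0 and 33.2 CPM in Acetazolamide and at 43.4, 43.2 and 46.6 CPM in Laminin511-E8 libraries. The Laminin511-E8 libraries were above all 6 others, by 0.37 ± 0.11 on the log2 scale against Ctrl, and 0.36 ± 0.07 with the correction (edgeR adjusted p 0.086). With the correction DESeq2 called it against Ctrl (adjusted p 0.012) and against Acetazolamide (adjusted p 0.0041), and limma did not (adjusted p 0.16 and 0.18). For NPC1, which moves cholesterol out of lysosomes, SOAT1, which esterifies it, and ABCG1, another exporter, the corrected Laminin511-E8 values against Ctrl were 0.14, 0.06 and 0.31. SOAT1 was named for Acetazolamide against Ctrl and ABCG1 for Laminin511-E8 against Acetazolamide. Of the 12 genes only 1, ABCA1, had an unadjusted p below 0.05 from edgeR for Laminin511-E8 against Ctrl, in either fit. Of all genes, 1.34% were higher at that p without the correction and 3.28% with it.

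Of 21 other genes of fatty acid and lipid synthesis, LPIN1 and SCD5 fell under laminin 511-E8 in the fit with the GC correction (0.235% of all genes fell). LPIN1 (ENSG00000134324, chr2:11677595-11827409 on the plus strand) encodes lipin 1, the phosphatidate phosphatase that makes diacylglycerol for triglycerides. It stood at 181, 155 and 179 CPM in Ctrl, at 167, 178 and 177 CPM in Acetazolamide, and at 112, 126 and 119 CPM in Laminin511-E8 libraries, with no overlap. The log2 fold change against Ctrl was -0.53 ± 0.10 without the correction (edgeR adjusted p 0.69) and -0.56 ± 0.08 with it (adjusted p 0.013). Against Acetazolamide it was -0.55 ± 0.10 and -0.56 ± 0.08 (adjusted p 0.71 and 0.013). The size hardly depended on the correction, and DESeq2 called it in both comparisons without correction (adjusted p 0.00094 and 0.00095). The corrected call against Ctrl was lost without Ctrl replicate 1 or 3 or Laminin511-E8 replicate 1 or 3, where the change stayed between -0.55 and -0.50, and with limma (adjusted p 0.052). Against Acetazolamide it was lost without Acetazolamide replicate 1 or Laminin511-E8 replicate 1 or 3, with changes between -0.58 and -0.51. With the replicate number added to the corrected edgeR fit, LPIN1 passed in neither comparison (adjusted p 0.079 and 0.086).

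SCD5 (ENSG00000145284, chr4:82629539-82798857 on the minus strand), a second stearoyl-CoA desaturase, stood at 62.6, 60.1 and 57.3 CPM in Ctrl, at 54.2, 59.1 and 49.6 CPM in Acetazolamide and at 43.9, 40.1 and 46.7 CPM in Laminin511-E8 libraries. The Laminin511-E8 libraries lay below all others. The log2 fold change against Ctrl was -0.46 ± 0.12, and -0.49 ± 0.08 with the correction (edgeR adjusted p 0.032). This call was lost on leaving out any Ctrl or Laminin511-E8 library, or Acetazolamide replicate 1, with changes between -0.55 and -0.43, and with limma (adjusted p 0.12). DESeq2 without the correction did not call it (adjusted p 0.13), nor did the corrected edgeR fit with the replicate number added (adjusted p 0.16). Against Acetazolamide it did not pass (-0.32 ± 0.08, adjusted p 0.28 with the correction). GPAM, the mitochondrial glycerol-3-phosphate acyltransferase, gave -0.28 ± 0.06 for Laminin511-E8 against Ctrl with the correction and ACSL3, an acyl-CoA synthetase, -0.07 ± 0.07, and neither passed. Both were named because their p-values were the smallest of this list for Acetazolamide against Ctrl.

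**Figure D3:**
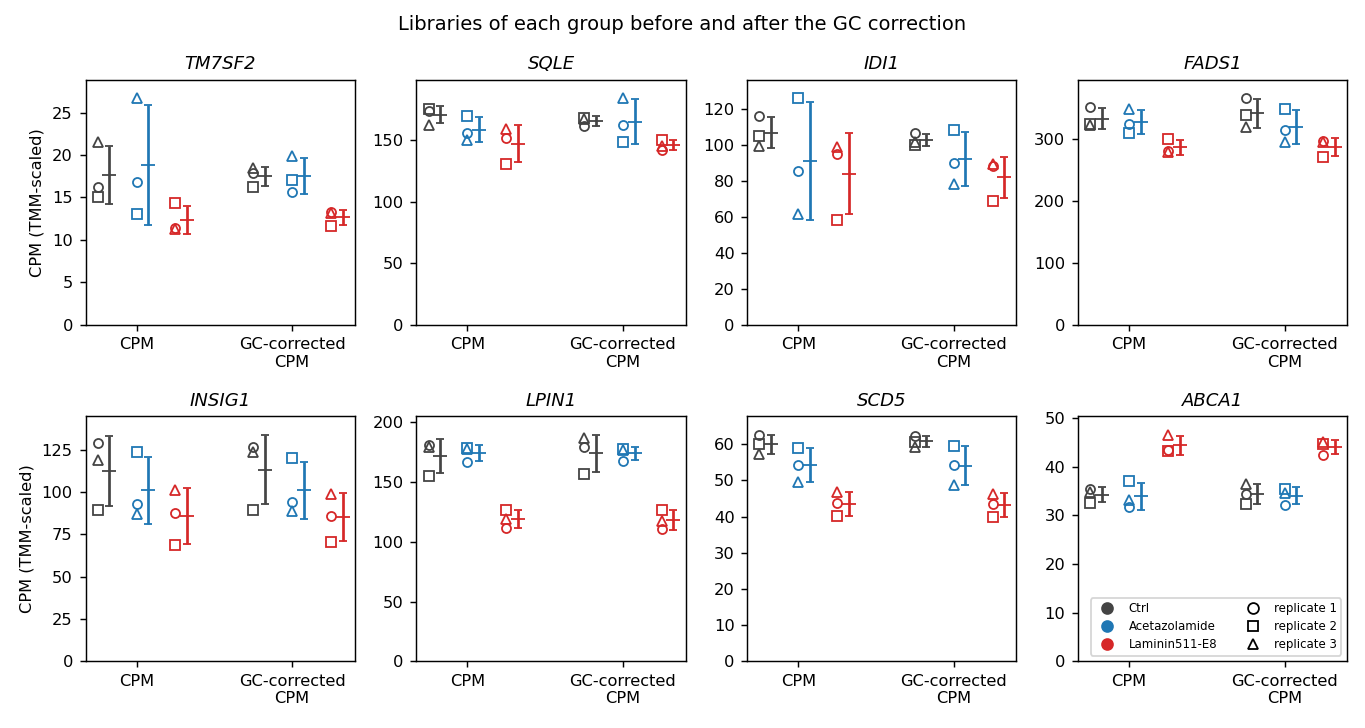
TMM-scaled CPM of 8 genes in each library before (left) and after (right) the GC correction, with the mean and SD of 3 libraries beside the symbols and axes from 0. LPIN1 and SCD5 lie lower and ABCA1 higher in all Laminin511-E8 libraries than in the 6 others both before and after the correction, while TM7SF2 separates from both groups only after it and INSIG1 overlaps in both.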

How the data were processed

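RNA of 9 H69 cultures was sequenced as poly(A) libraries. Raw gene counts were deposited by the authors, 1 table for each group. The submitters' notes name GRCh38 and the tools HTSeq 0.11.0, HISAT2 2.2.1, Trimmomatic 0.39 and FastQC 0.11.9. For annotation release, strand setting and multi-mapped reads, nothing is given in the sources used here. Of 61541 identifiers, 61369 were named from a gene table and 159 from GENCODE 29, which also gave exon lengths, GC content and coordinates. No column lacked a sample, and 0 entries named no gene.

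In R 4.3.3, counts that passed filterByExpr were TMM-scaled and tested by the robust quasi-likelihood fit of edgeR 4.0.16 on all 9 libraries. Adjustment was by Benjamini-Hochberg over 15997 genes, at a threshold of 0.05. CPM and TPM were computed from the counts for display. CPM of single genes were TMM-scaled, and CPM sums were per library total. The GC correction subtracted a local regression (span 0.3) of each library's deviations on GC content, over 15771 genes with a known GC content. DESeq2 1.42.0, limma 3.58.1 (voom), other scalings, filters, the 6 libraries compared, a replicate block and leaving out each library were alternatives. The code was tested on simulated data. Intervals are 95% confidence intervals. A count of 0 allows up to 3 counts, for counting error only.

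Python 3.11.15 with pandas 2.3.3 and matplotlib 3.10.9 gave tables and plots. Members and lists were chosen with earlier results of these data known, so lists were described by counts and medians beside all genes, with no test. All 32 members are named, and of the other lists the genes that passed, or else the 2 with the smallest p in each comparison. The levels of some genes of this pathway are not reported here. Replicates are the authors' biological replicates, and the way cultures were separated is not stated, so p-values measure the spread between these samples. For the promoter table, the last bases of 25 of 28 promoters were found in GENCODE 29 transcripts of the same gene as given, and 0 as the reverse complement.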

Additional observations from a re-analysis of the deposited data

How the results depend on the processing

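The number of genes called at an adjusted p below 0.05 was 0 in each comparison with edgeR, with limma and on leaving out any library without the GC correction. For Acetazolamide against Ctrl, Laminin511-E8 against Ctrl and Laminin511-E8 against Acetazolamide, the unadjusted p was below 0.05 in 292, 454 and 374 genes with edgeR and in 282, 439 and 348 with limma. In the same order DESeq2 called 7, 21 and 19, the GC correction 1, 57 and 31, the correction with DESeq2 12, 150 and 97, and the correction with limma 0, 17 and 19. Leaving out 1 library under the correction gave 0 to 3 genes for Acetazolamide against Ctrl, the 3 without Acetazolamide replicate 2. For Laminin511-E8 against Ctrl it gave 2, 44 and 20 without Ctrl replicates 1, 2 and 3, 28, 65 and 58 without those of Acetazolamide, and 2, 21 and 10 without those of Laminin511-E8. For Laminin511-E8 against Acetazolamide the counts in that order were 18, 33 and 24, then 0, 24 and 21, then 0, 12 and 8. The corrected leave-one-out, DESeq2 and limma fits were chosen after seeing the data. Of the 32 synthesis genes, 1 was called in 1 setting, TM7SF2 with the correction and DESeq2. The median of the sterol genes for Acetazolamide against Ctrl was 0.04, and 0.0004 to 0.23 on leaving out 1 library without the correction, the highest without Acetazolamide replicate 2. The other medians of the sterol and fatty acid genes moved by less than 1 SD between replicates, but those of the fatty acid genes changed sign on leaving out 1 library, from -0.11 to 0.21 for Acetazolamide against Ctrl (SD 0.196) and from -0.25 to 0.02 for Laminin511-E8 against Acetazolamide (SD 0.194), with Acetazolamide replicates 2 and 3 at the extremes.

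Replicate numbers are shared by the groups. The correlation of deviations of same-numbered libraries, without the GC correction, ran from -0.80 to 0.36. These deviations carry the GC trend, so they cannot show whether same-numbered cultures were handled together. The replicate block called 0 genes in each comparison. The block with the GC correction called 0, 6 and 0 genes and 0 of the 32. LPIN1 (adjusted p 0.079 against Ctrl and 0.086 against Acetazolamide) and SCD5 (0.16 against Ctrl) were not called in it, with log2 fold changes of -0.56, -0.56 and -0.49.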
